A study of Mus musculus with 6 samples.

Results

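The 10 genes described here encode EGF family ligands (Epgn, Areg, Hbegf, Tgfa, Btc and Ereg), ErbB receptors (Egfr, Erbb2 and Erbb3) and the receptor inhibitor Errfi1. They were taken by their symbols from a table of 30386 genes, and all 10 were found. The table comes from dorsal epidermis of mouse embryos at E18.5, taken off the dermis with Dispase and brought to single cells with Accutase. Messenger RNA was counted from its 3' ends (3'DGE) in 3 libraries of the genotype labelled p63alphaKO and 3 wild-type (WT) libraries. The study's title sets the comparison within work on p63 isoforms and AEC syndrome, a skin disorder caused by dominant mutations in the p63 gene. How the p63alphaKO allele was made, the strain, and whether the libraries of a group came from separate embryos are not stated by the labels, so the p-values measure only the spread between these libraries.

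EGF family ligands are made as membrane-bound precursors that proteases cut free, and they bind receptors of the ErbB family. Egfr binds Epgn, Areg, Hbegf, Tgfa, Btc and Ereg, while Erbb2 has no known ligand and serves as a partner, and Erbb3 binds neuregulins and has weak kinase activity of its own. The bound receptors pair up and drive the Ras and ERK cascade. In epidermis, EGF receptor signalling is known for its roles in keratinocyte growth, hair follicle shape and wound closure, and Errfi1 (also called Mig6) is induced by it and binds the receptor kinase to shut it off.

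The libraries held 3350442 to 3539604 reads for p63alphaKO and 2564407 to 4474764 reads for WT. Levels are in CPM, the reads of a gene scaled to the library's total. A log2 fold change is p63alphaKO over WT after adding a pseudocount of 1 CPM, so low genes change more than it shows. Since the reads come from 3' ends, levels are compared between libraries for the same gene and not between genes. Trp63, the gene that encodes p63, was at 143, 146 and 136 CPM in p63alphaKO and 63.9, 71.7 and 87.2 CPM in WT. It was called higher in p63alphaKO (limma, log2 fold change 0.93, adjusted p = 0.019). This count per gene cannot check the loss of an isoform. The epidermal label fits the high levels of the keratin genes Krt1 and Krt10 in every library, with 17100 CPM as the lowest value. Summed dermal fibroblast markers (10 genes) were at 328 to 664.5 CPM in p63alphaKO and 2199 to 4878 CPM in WT. Of the 9 tested genes of this list, 7 were called lower, against 1.18% of all tested genes. Muscle markers (10 genes) summed to 54.8 to 112 CPM in p63alphaKO and 401 to 2483 CPM in WT, erythroid markers (6 genes) to 559 to 1769 CPM in p63alphaKO and 1903 to 3440 CPM in WT, and endothelial markers (6 genes, with Tek, Emcn and Cldn5 at 0 in p63alphaKO) to 2.39 to 4.95 CPM in p63alphaKO and 8.48 to 40.1 CPM in WT. Of the tested genes, 5 of 8 muscle and 3 of 4 erythroid markers were called lower, and no endothelial marker was tested. In such bulk samples, fewer cells of a type and less RNA per cell cannot be told apart. The part of these marker differences in the results below was not tested.

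None of the 10 genes passed the test across all genes (limma, Benjamini-Hochberg adjusted p under 0.05), although 9 of the 10 had positive log2 fold changes. The call rate over the 7464 tested genes was 1.65%, with 123 genes called (35 higher and 88 lower). These numbers were 48 higher and 65 lower with TMM scaling, 42 higher and 66 lower with quantile normalization, and 69 higher and 64 lower with upper quartile scaling. Leaving out p63alphaKO replicate 1, 2 or 3 left 47, 68 or 38 called genes. Both edgeR and DESeq2 on recovered reads also called 0 of the 10. At an unadjusted p under 0.05 there were 4 members, Epgn, Hbegf, Egfr and Errfi1, and 15.6% of all tested genes met that limit. The median log2 fold change of the 10 was 0.46, against -0.085 over all tested genes, of which 40.2% were positive. All p63alphaKO libraries lay above all WT libraries for Epgn, Egfr and Errfi1, 3 of the 10, which compares with 7.6% of all tested genes, and no member lay wholly below, against 13.4%. TMM scaling moved the median of all genes from -0.085 to 0.018 and upper quartile scaling moved it to 0.048. Set against the median of all genes, the members' log2 values ran from -0.33 for Btc to 1.66 for Epgn.

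**Figure D1:**
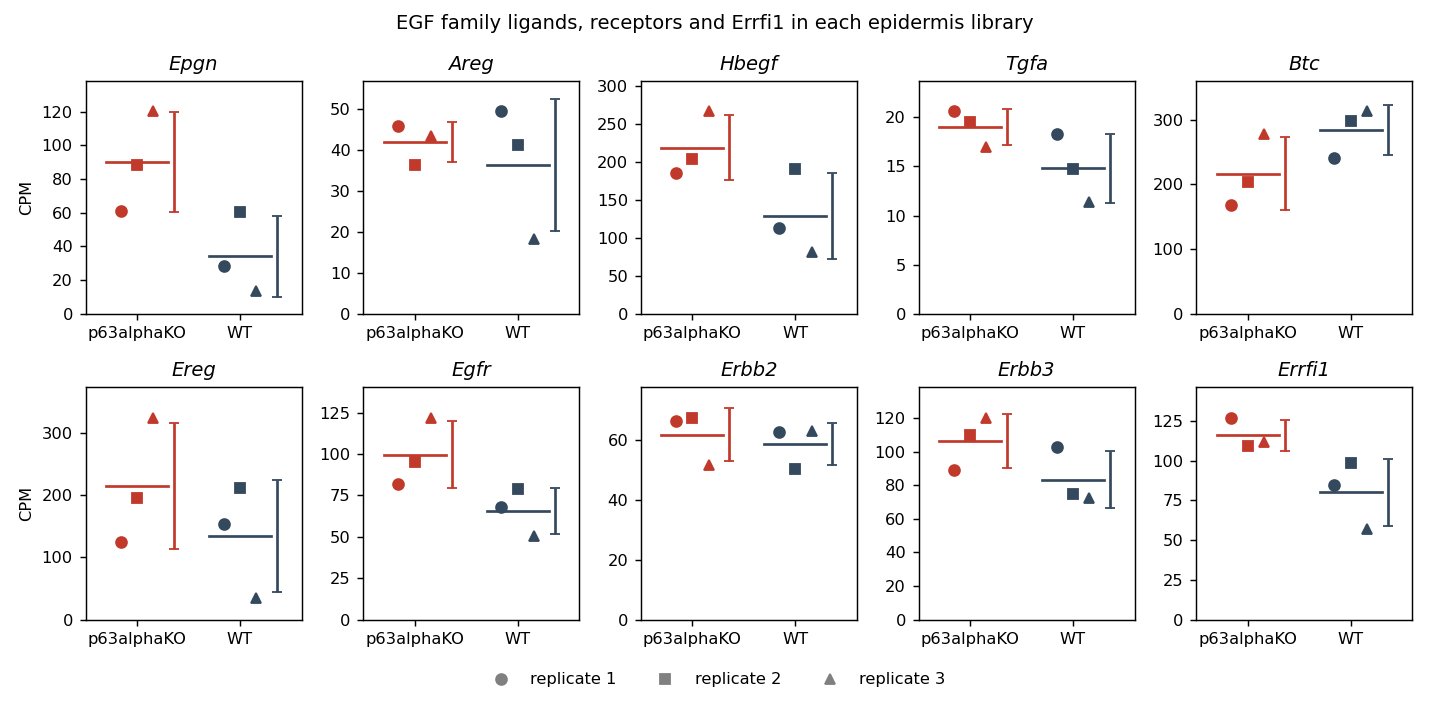
CPM of each of the 10 genes (vertical axis, starting at 0) in the 3 p63alphaKO libraries (red, left) and the 3 WT libraries (dark, right), with the group mean as a line, the SD as a bar and the replicate number as the symbol. The groups are apart for Epgn, Egfr and Errfi1, and the triangle of WT replicate 3 is the lowest WT point in 8 of the 10 panels.

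Among the ligands, Epgn, which encodes epigen, had the largest difference. Its level was 61.0, 88.5 and 120.2 CPM in p63alphaKO replicates 1, 2 and 3, against 28.4, 60.3 and 13.2 CPM in WT replicates 1, 2 and 3. The groups met almost end to end, with p63alphaKO replicate 1 only just above WT replicate 2, and WT replicate 3 far below the rest. The means were 89.9 ± 29.6 CPM in p63alphaKO and 34.0 ± 24.0 CPM in WT (SD, n = 3 each), a 2.65-fold ratio. The log2 fold change was 1.57 (SE 0.40, 95% interval 0.71 to 2.43, adjusted p = 0.0652). Without WT replicate 2 the value was 2.10 and passed the test (adjusted p = 0.00619), and without WT replicate 3 it was 1.04 (adjusted p = 0.132). Its adjusted p was 0.124 with edgeR and 0.241 with DESeq2.

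Epgn stands in a row of ligand genes. It lies on chromosome 5 (ENSMUSG00000035020, 91027464 to 91035215, plus strand, mm10), followed by Ereg (ENSMUSG00000029377, 91074622 to 91093646, plus), Areg (ENSMUSG00000029378, 91139599 to 91148432, plus) and Btc (ENSMUSG00000082361, 91357261 to 91402994, minus). The stretch spans 375.5 kb, and these 4 are the only protein-coding genes that GENCODE release 21 places in it. The log2 fold changes along it were 1.57 for Epgn, 0.92 for Ereg, 0.31 for Areg and -0.41 for Btc. No 2 of these neighbours were tested against each other.

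**Figure D2:**
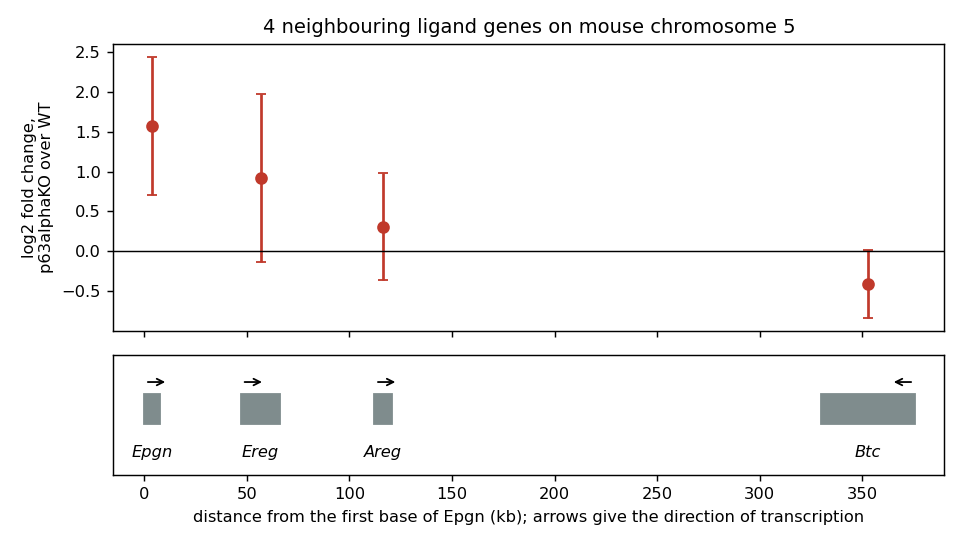
Log2 fold change of p63alphaKO over WT with its 95% interval (upper panel) for the 4 ligand genes at their distance in kb from the first base of Epgn (lower panel, boxes for gene bodies, arrows for direction). The estimates go from 1.57 at Epgn to -0.41 at Btc, and the intervals of Ereg, Areg and Btc include 0.

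Ereg encodes epiregulin and varied widely within both groups. It was at 125, 196 and 324 CPM in p63alphaKO replicates 1, 2 and 3, and at 154, 211 and 35.3 CPM in WT replicates 1, 2 and 3. The groups overlapped, with WT replicate 2 above p63alphaKO replicates 1 and 2. The highest library was 2.59 times the lowest within p63alphaKO and 5.99 times within WT. The log2 fold change of 0.92 (SE 0.49, 95% interval -0.13 to 1.97, adjusted p = 0.396) changed with the libraries used. It was 0.14 when WT replicate 3 was left out, 0.57 when p63alphaKO replicate 3 was, and 1.42 when WT replicate 2 was. An exon of Ereg overlaps Gm19610 on the other strand, so its reads are uncertain if counting ignored the strand.

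Areg encodes amphiregulin, known as an autocrine growth factor of keratinocytes. Its level was 46.0, 36.4 and 43.5 CPM in p63alphaKO, against 49.5, 41.3 and 18.3 CPM in WT. WT replicates 1 and 2 were within or above the p63alphaKO range, and WT replicate 3 was lower than all others. The log2 fold change was 0.31 (95% interval -0.36 to 0.98, adjusted p = 0.697), and it turned to -0.11 without WT replicate 3.

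Btc encodes betacellulin and was the member with a negative value. It was at 167, 204 and 278 CPM in p63alphaKO, against 240, 299 and 313 CPM in WT, with p63alphaKO replicate 3 inside the WT range. The means were 216.5 ± 56.1 CPM in p63alphaKO and 284 ± 38.4 CPM in WT (SD, n = 3 each), and the log2 fold change was -0.41 (SE 0.20, 95% interval -0.84 to 0.01, adjusted p = 0.336). Among WT libraries, Btc was highest in replicate 3, where Epgn, Ereg and Areg were lowest. Within each library, the log2 ratio of Epgn to Btc does not depend on the scaling between libraries. This ratio, a pair chosen after the values were seen, was -1.44, -1.20 and -1.20 in p63alphaKO and -3.04, -2.29 and -4.46 in WT. All p63alphaKO libraries were above all WT libraries, and the group means differed by 1.98 log2 units.

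The sequences before the starts of Epgn, Areg and Btc are shown because the estimated fold changes of these neighbours differed, a difference that was not tested. They are RefSeq windows on GRCm38.p6 (the assembly called mm10), 5′ to 3′ on the gene's strand, ending before the first base that GENCODE places in an exon. Capitals mark a TATA box (TATAAA) or a GC box (GGGCGG), each searched on both strands.
Epgn, chr5:91027267-91027463, plus: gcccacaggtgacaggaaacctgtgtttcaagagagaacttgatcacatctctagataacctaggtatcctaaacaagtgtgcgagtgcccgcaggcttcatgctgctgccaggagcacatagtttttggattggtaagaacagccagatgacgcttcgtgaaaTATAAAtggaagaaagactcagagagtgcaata
Areg, chr5:91139349-91139598, plus: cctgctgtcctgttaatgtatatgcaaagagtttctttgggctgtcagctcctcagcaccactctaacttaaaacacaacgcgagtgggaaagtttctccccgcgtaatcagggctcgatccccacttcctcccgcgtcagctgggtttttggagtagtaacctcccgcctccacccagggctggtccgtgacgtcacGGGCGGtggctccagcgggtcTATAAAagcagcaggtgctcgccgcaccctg
Btc, chr5:91402995-91403244, minus: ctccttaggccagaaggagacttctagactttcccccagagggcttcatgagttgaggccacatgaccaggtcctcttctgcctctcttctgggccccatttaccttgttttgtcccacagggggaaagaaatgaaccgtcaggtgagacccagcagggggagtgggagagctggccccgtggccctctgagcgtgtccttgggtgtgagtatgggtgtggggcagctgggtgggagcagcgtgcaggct
The TATA box began 33 bases before the end of the Epgn window and 31 before that of Areg, while the Btc window held neither motif. Over the 250 bases before each start, TATAAA was found in 12.4% and GGGCGG in 32.7% of 32851 mouse windows. Other motifs searched, the AP-1 site TGANTCA and the p53 family half-site, were in 6.75% and 7.13% of all windows and in 0 of the 8 windows of the 7 members that the table holds (Epgn, Areg, Btc, Tgfa, Egfr, Erbb2 and Errfi1). A match describes letters only, and no match says nothing of the factor.

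The ligands encoded elsewhere in the genome were Hbegf and Tgfa. Hbegf (ENSMUSG00000024486, chromosome 18, 36504927 to 36515805, minus strand), the heparin-binding ligand known for keratinocyte migration in wounds, was at 185, 204 and 266 CPM in p63alphaKO. In WT it was at 113, 191 and 80.6 CPM, so that only WT replicate 2 reached into the p63alphaKO range. The means were 219 ± 42.5 CPM in p63alphaKO and 128 ± 56.5 CPM in WT (SD, n = 3 each), a 1.70-fold ratio, and the log2 fold change was 0.84 (SE 0.26, 95% interval 0.28 to 1.39, adjusted p = 0.116). It passed the test without WT replicate 2, at 1.17 (adjusted p = 0.0201), and was 0.55 without WT replicate 3 (adjusted p = 0.316).

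Tgfa (ENSMUSG00000029999, chromosome 6, 86195223 to 86275719, plus strand) encodes transforming growth factor alpha, whose loss in mice gives wavy hair. It had 36 to 73 reads per library, the fewest of any member. Its level was 20.6, 19.5 and 17.0 CPM in p63alphaKO and 18.3, 14.7 and 11.3 CPM in WT, and WT replicate 1 lay above p63alphaKO replicate 3. The log2 fold change was 0.36 (95% interval -0.30 to 1.03, adjusted p = 0.637). An exon overlaps Gm43917 on the other strand.

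**Figure D3:**
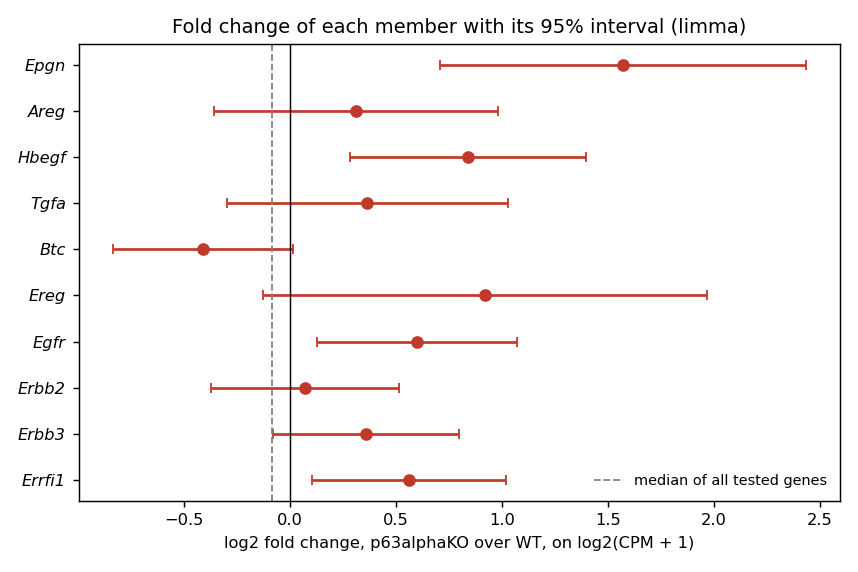
Log2 fold change of each member, p63alphaKO over WT on log2(CPM + 1), with its 95% interval from limma; the dashed line marks the median of all tested genes at -0.085. The intervals of Epgn, Hbegf, Egfr and Errfi1 lie above 0, and none of the 10 passed the test after adjustment over all genes.

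Of the receptors, Egfr was the member whose groups did not overlap. Egfr (ENSMUSG00000020122, chromosome 11, 16752203 to 16918158, plus strand), the main receptor of these ligands in basal keratinocytes, was at 82.2, 94.9 and 122 CPM in p63alphaKO. In WT it was at 67.8, 78.6 and 50.7 CPM, and the nearest libraries of the groups were a few CPM apart. The means were 99.7 ± 20.3 CPM in p63alphaKO and 65.7 ± 14.1 CPM in WT (SD, n = 3 each), a 1.52-fold ratio, and the log2 fold change was 0.60 (SE 0.22, 95% interval 0.12 to 1.07, adjusted p = 0.204). With any 1 library left out it stayed between 0.43 and 0.74 and was not called.

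Erbb2 (ENSMUSG00000062312, chromosome 11, 98412470 to 98437716, plus strand), the partner receptor without a ligand, differed least. It was at 66.3, 67.6 and 51.6 CPM in p63alphaKO and 62.73, 50.46 and 62.97 CPM in WT, with the groups mixed. Its log2 fold change was 0.07 (SE 0.21, 95% interval -0.37 to 0.52, adjusted p = 0.920) and took the other sign, -0.033, without WT replicate 2. An Erbb2 exon overlaps Mien1 on the other strand.

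Erbb3 (ENSMUSG00000018166, chromosome 10, 128567523 to 128589652, minus strand), the neuregulin receptor, was at 88.9, 110 and 120.2 CPM in p63alphaKO. In WT it was at 103, 74.8 and 72.1 CPM, and WT replicate 1 lay above p63alphaKO replicate 1. The log2 fold change was 0.36 (SE 0.21, 95% interval -0.08 to 0.80, adjusted p = 0.438). Erbb3 is also known from melanocytes, whose summed markers (8 genes) were at 490, 459.5 and 346 CPM in p63alphaKO replicates 1, 2 and 3, and 203, 305.5 and 343 CPM in WT replicates 1, 2 and 3. Every p63alphaKO melanocyte sum lay above every WT sum, though the nearest were only 346 and 343 CPM. Much of each sum was Dct, at 373, 324 and 255 CPM in p63alphaKO and 131, 198.5 and 244 CPM in WT. Of the 4 tested genes of this list, 0 were called, against 1.65% of all tested genes. Of these, 3 had positive values, and Sox10 was at -0.26. Within p63alphaKO, Erbb3 was highest in replicate 3, where the melanocyte sum was lowest. The part of melanocytes in the Erbb3 values was not tested.

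The inhibitor Errfi1 (ENSMUSG00000028967, chromosome 4, 150853919 to 150868892, plus strand) was at 127, 109 and 112 CPM in p63alphaKO, against 84.6, 98.5 and 57.3 CPM in WT. All p63alphaKO libraries lay above all WT libraries. The means were 116 ± 9.73 CPM in p63alphaKO and 80.1 ± 20.9 CPM in WT (SD, n = 3 each), a 1.45-fold ratio. The log2 fold change was 0.56 (SE 0.21, 95% interval 0.10 to 1.02, adjusted p = 0.217), or 0.34 without WT replicate 3. Relative to Egfr in the same library, the log2 ratio of Errfi1 was 0.62, 0.20 and -0.12 in p63alphaKO and 0.31, 0.32 and 0.17 in WT. The WT values fell inside the p63alphaKO range, with a difference of -0.04 between the group means.

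The windows before the starts of Egfr and Errfi1 are shown as those of the receptor and the inhibitor whose groups did not overlap, with the same marks. Of the 2 RefSeq windows of Errfi1, the one shown is that whose start lies in 2 of the 3 GENCODE transcripts. It lies inside the span of the gene, which begins at 150853919. The other window, 150853546 to 150853795, lies before that base. Its start lies in 0 of the 3 transcripts, and it held none of the motifs searched.
Egfr, chr11:16751953-16752202, plus: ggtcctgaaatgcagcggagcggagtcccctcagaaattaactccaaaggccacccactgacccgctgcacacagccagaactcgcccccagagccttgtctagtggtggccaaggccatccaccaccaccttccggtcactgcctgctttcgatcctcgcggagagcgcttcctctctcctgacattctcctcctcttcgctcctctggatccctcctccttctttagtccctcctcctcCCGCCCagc
Errfi1, chr4:150854820-150855069, plus: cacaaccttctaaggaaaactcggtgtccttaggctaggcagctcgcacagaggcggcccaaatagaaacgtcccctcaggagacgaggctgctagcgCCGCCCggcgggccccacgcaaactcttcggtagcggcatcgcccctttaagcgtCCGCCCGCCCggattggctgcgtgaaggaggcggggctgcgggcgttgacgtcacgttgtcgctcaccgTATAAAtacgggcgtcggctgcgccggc
The Errfi1 window held a TATA box that began 28 bases before its end and GC boxes at 152, 97 and 93 bases, the last pair overlapping. Egfr held a GC box 9 bases before its end and no TATA box.

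Libraries of the same genotype differed for many of the members. WT replicate 3 was the lowest WT library for 8 of the 10 members and the highest for Btc and Erbb2, while it was the lowest for 28% of all tested genes. Among p63alphaKO libraries, replicate 3 was the highest for 6 members (Epgn, Hbegf, Btc, Ereg, Egfr and Erbb3), against 24.5% of all tested genes. Epgn, Hbegf, Ereg and Egfr had the same order of libraries in both groups: replicates 1, 2, 3 from low to high in p63alphaKO and 3, 1, 2 in WT. That pair of orders, picked after the members' values were seen, was found in 2.79% of all tested genes and was not tested. The depth of WT replicate 3, 3174444 reads, lay between those of the other WT libraries.

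**Figure D4:**
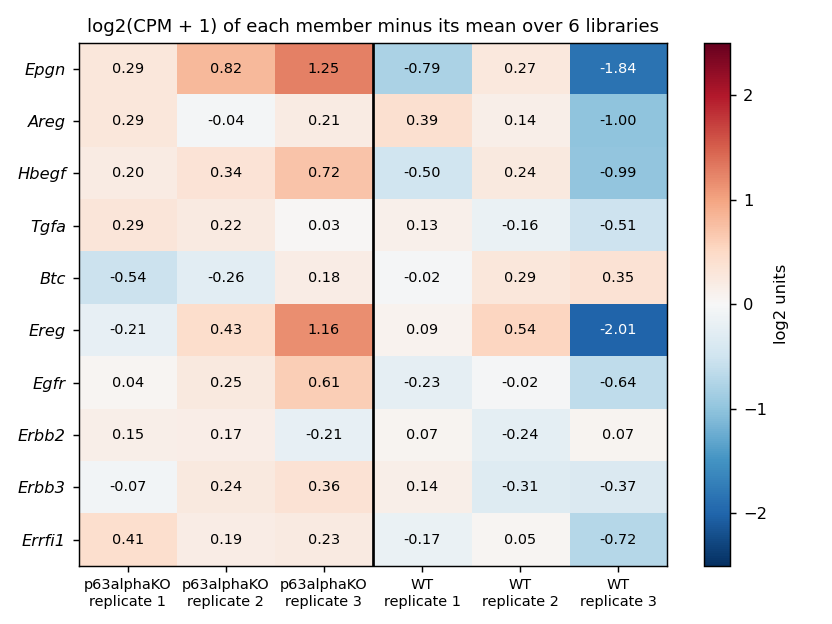
Log2(CPM + 1) of each member minus its mean over the 6 libraries, with p63alphaKO libraries left of the line and WT libraries right of it; red is above and blue below the mean. WT replicate 3 holds the lowest values, -2.01 for Ereg and -1.84 for Epgn, and p63alphaKO replicate 3 the highest, 1.25 for Epgn and 1.16 for Ereg.

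The stress keratins Krt6a, Krt6b, Krt16 and Krt17, which keratinocytes make after injury, had that order of libraries in their sum. Only Krt6b had it on its own. Krt17 was instead lowest of its group in p63alphaKO replicate 3 (538 CPM) and highest of its group in WT replicate 3 (658 CPM). The sum was 1543, 1771 and 2283 CPM in p63alphaKO replicates 1, 2 and 3, and 1246, 1628 and 974 CPM in WT replicates 1, 2 and 3. It was highest in p63alphaKO replicate 3 and lowest in WT replicate 3, and the groups overlapped. Of the 4 genes, 2 were called higher, against 0.469% of all tested genes. These were Krt6a and Krt6b, whose groups did not overlap (log2 fold change 1.415 and 1.451, adjusted p = 0.0249 and 0.0257). Krt16 and Krt17 were not called (0.85 and 0.10, adjusted p = 0.269 and 0.879), and their groups overlapped. The sum of basal keratinocyte markers (6 genes), at 4383 to 5461 CPM in p63alphaKO and 3279 to 5996 CPM in WT, was not lowest in WT replicate 3, where it was 5785 CPM. This sum joins opposite directions. Krt15, at 1728 CPM in WT replicate 3, was called lower (log2 fold change -1.80, adjusted p = 0.00164), 1 of the 6 against 1.18% of all tested genes. The other 5 had positive values and were not called. The part of these cell states in the members' values was not tested.

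The level of the 6 ligands relative to the 3 receptors overlapped between the groups and was not tested. The mean log2 level of the ligands minus that of the receptors was -0.004, 0.02 and 0.32 in p63alphaKO replicates 1, 2 and 3, and -0.13, 0.39 and -0.70 in WT replicates 1, 2 and 3. The group means were 0.11 ± 0.18 in p63alphaKO and -0.14 ± 0.55 in WT (SD, n = 3 each). WT replicate 2 had the highest value of all libraries and WT replicate 3 the lowest, and without WT replicate 3 the difference between the groups was -0.02 in place of 0.26.

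The rest of the family was at low level. Egf, Nrg1, Nrg2, Nrg3, Nrg4 and Erbb4 were all under the minimum mean of 10 CPM and were not tested. Nrg1, a ligand of Erbb3, had the most, at 4.23, 6.41 and 3.88 CPM in p63alphaKO and 8.57, 2.68 and 1.26 CPM in WT. Egf was at 0 in all p63alphaKO libraries, where 3 reads would be 0.847 to 0.895 CPM, and at 0, 0.45 and 0.63 CPM in WT. Nrg3 was at 0 throughout.

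Genes that release ligands, restrain the receptors or carry the signal onward were measured from lists chosen with earlier results of these data known. Of 6 tested genes of ligand release (of 8 listed), 0 were called and the median log2 fold change was 0.08. Adam17, the protease that frees several of these ligands, was at 53.1, 61.4 and 47.4 CPM in p63alphaKO and 48.7, 37.7 and 74.6 CPM in WT, with the groups mixed. Rhbdf2 (an iRhom, needed to bring Adam17 to the cell surface), the metalloprotease Adam15 and Frmd8 had log2 values of -0.72, 0.39 and 0.26 (adjusted p = 0.394, 0.463 and 0.714). Of 12 tested genes of receptor control (of 13 listed), 0 were called, the median was 0.09, and the smallest p-values belonged to Lrig2, Lrig3 and Cbl at 0.45, -0.42 and -0.22 (adjusted p = 0.439, 0.465 and 0.596). Cbl encodes a ubiquitin ligase that tags the activated EGF receptor for breakdown. All 20 listed adaptors and kinases were tested, 0 were called and the median was -0.085, the same as over all genes to this precision. Hras, a Ras GTPase, was at 127, 134 and 136 CPM in p63alphaKO and 149, 180 and 229.5 CPM in WT (log2 fold change -0.47, adjusted p = 0.237), while Stat3 and Map2k1 had values of 0.43 and 0.41 (adjusted p = 0.351 and 0.554). At an unadjusted p under 0.05, Hras was the only gene of these 3 lists.

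In the list of ERK-responsive genes, Dusp6 and Ier3 rose and Fos fell in p63alphaKO. Of the 11 tested (of 16 listed), 9 had positive values and the median was 0.80, with 2 called higher, against 0.469% of all tested genes, and 1 called lower, against 1.18%. All p63alphaKO libraries lay above all WT libraries for 7 of the 11, against 7.6% of all tested genes, and below them for Fos, against 13.4%. Egr1 and Spry2 were at 0.04 and -0.25 on the log2 scale (adjusted p = 0.957 and 0.788), and their groups overlapped. Ier3, an early response gene, was at 427, 451 and 409 CPM in p63alphaKO and 250.2, 241 and 145 CPM in WT, and its log2 fold change was 1.05 (SE 0.20, adjusted p = 0.0159). Dusp6, a phosphatase that switches ERK off, was at 307, 290.0 and 268 CPM in p63alphaKO and 150, 172 and 66.4 CPM in WT (log2 fold change 1.26, adjusted p = 0.0318). Leaving out WT replicate 3 gave Dusp6 a value of 0.84 (adjusted p = 0.0172). Fos, an immediate early transcription factor gene, was at 457, 349.7 and 398 CPM in p63alphaKO and 645, 723 and 615 CPM in WT (log2 fold change -0.72, adjusted p = 0.0335). All 3 calls needed each of the p63alphaKO libraries (adjusted p from 0.0698 to 0.168 without 1 of them), and that of Fos also needed WT replicate 2 (0.0829). Dusp6 missed the threshold with quantile normalization, edgeR and other minimum levels (0.0511 to 0.0729). Fos missed it with TMM or upper quartile factors, edgeR, a replicate block and other minimum levels (0.0567 to 0.0876).

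**Figure D5:**
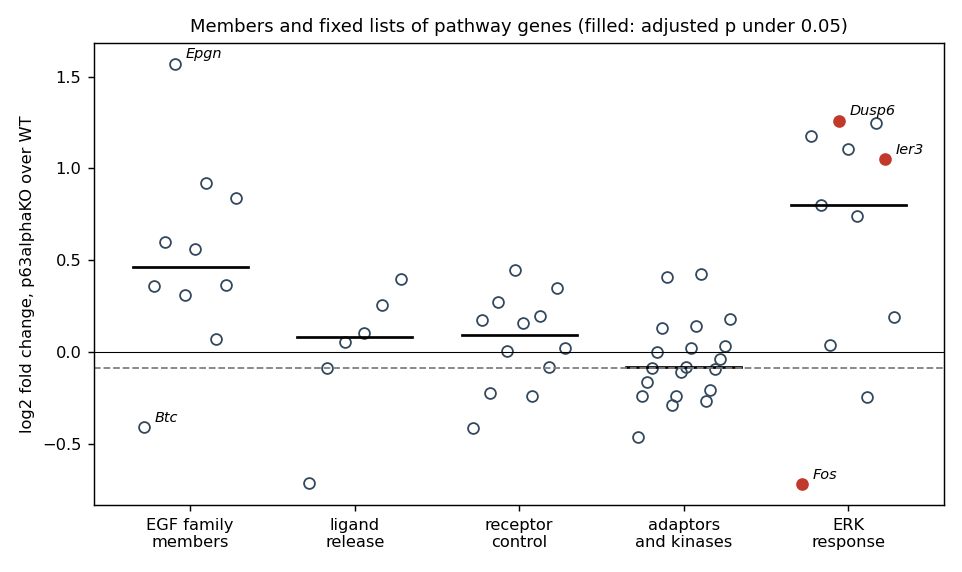
Log2 fold change of p63alphaKO over WT for the members and for the tested genes of 4 lists, each gene a circle, filled where its adjusted p was under 0.05, with the list's median as a black bar and the median of all tested genes as a dashed line. The called genes are Dusp6 and Ier3 above 0 and Fos below it, and the medians of the other pathway lists lie between -0.085 and 0.09.

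Among the 7464 tested genes, those with the pattern nearest to Epgn over the 6 libraries were Sprr2e, Ifi202b, Krt6b, Sprr2h and Sprr2d. Likeness was measured as the root mean square difference of centred log2 values, which was 0.13 for Sprr2e, 0.23 for Ifi202b and 0.25 for Krt6b. Sprr2e, a small proline-rich gene of the cornified envelope, was at 74.3, 88.8 and 114 CPM in p63alphaKO and 32.3, 58.5 and 13.2 CPM in WT. The Sprr2 genes are near-identical copies, so reads may be divided among them uncertainly. Nearest to Egfr were Cers3, Abca12, Spsb3, Asprv1 and Myo1e, with differences from 0.058 to 0.095. Cers3, which makes ceramides of the skin barrier, was at 0.66 on the log2 scale of p63alphaKO over WT (adjusted p = 0.0998). Abca12, which carries lipids into lamellar granules, was at 0.58 (adjusted p = 0.134).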

How the data were processed

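The deposited table gives CPM per gene, the reads of a gene scaled by the authors to the total of the library, since the columns sum to between 999157 and 999401. The submitters' processing notes name STAR, HTSeq and mm10, while versions, annotation and strand setting are not given in the sources used. All CPM values were whole multiples of what 1 read is worth (tolerance 0.0055 CPM), which gave whole reads for 100% of values. Floors given in reads cover counting error only, while the intervals of the fold changes come from the limma fit and rest on the spread between libraries.

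Genes were tested with limma 3.58.1 (trend fit, under R 4.3.3) on log2(CPM + 1), two-sided, with genotype as the only term, over the 7464 genes whose mean reached 10 CPM, adjusted by Benjamini-Hochberg over all of them. All 10 members passed that minimum. An exact permutation test of 3 libraries against 3 cannot go below p = 0.1, so none was used. Alternatives were other scalings, pseudocounts and minimum levels, array weights, edgeR 4.0.16 (quasi-likelihood) and DESeq2 1.42.0 on the recovered reads, a replicate block and each library left out. The steps were tested on simulated data.

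The members and lists were chosen with earlier results of these data known. All members are named, with called genes and up to 3 genes of smallest p from each pathway list. The 5 genes nearest in pattern to Epgn and to Egfr are named too. Adam17, Egr1, Spry2 and the untested family genes were named outside this rule. Positions are from GENCODE mouse release 21 (99.6% of gene IDs found), and promoter sequences from RefSeq (GRCm38.p6), which gave windows for 7 of the 10 members.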

Additional observations from a re-analysis of the deposited data

How the results depend on the processing

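The limits are 3 libraries per genotype, a WT replicate 3 that sets much of the size of several differences, and depth, since Tgfa rests on 36 to 73 reads per library. Epgn, Hbegf, Btc, Ereg, Egfr, Erbb3, Errfi1 and Tgfa kept the sign of their log2 fold change in every alternative run, and no alternative called Areg, Tgfa, Btc, Ereg, Egfr, Erbb2, Erbb3 or Errfi1. With a library left out, the log2 value of Areg ranged from -0.11 (without WT replicate 3) to 0.58 and that of Erbb2 from -0.033 (without WT replicate 2) to 0.19.

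The 0 called members became 0 to 2 with a library left out (2 without WT replicate 2, Epgn and Hbegf) and 1 with the replicate block, where Epgn had an adjusted p of 0.0424. Whether the replicate numbers pair the libraries is not stated by the labels. Deviations from the group means correlated at -0.023, 0.066 and -0.11 for same-numbered libraries, which cannot show whether they were paired. With the block, 127 genes were called in all, against 123 without it, and Fos had an adjusted p of 0.0567. The ligand level relative to the receptor level was 0.26 and ranged from -0.02 to 0.53 with a library left out.

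The count of all called genes was 36 (12 higher, 24 lower) with a minimum of 50 CPM, 318 (139 higher, 179 lower) with array weights and 317 (152 higher, 165 lower) with DESeq2. Higher genes were 35 in the main test, 69 with upper quartile factors and 21 with edgeR. With a library left out, all called genes ranged from 38 to 179, higher ones from 3 to 88 and lower ones from 35 to 91. Called genes in the pathway lists were 3, became 1 with no minimum level, 1 with the 50 CPM minimum and 1 with edgeR, and ranged from 0 to 4 with a library left out.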
